A study of Rattus norvegicus with 6 samples.

Results

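The neuregulins and the ErbB receptors form a ligand and receptor family of 8 listed genes, Nrg1, Nrg2, Nrg3, Nrg4, Egfr, Erbb2, Erbb3 and Erbb4. A gene was taken as measured where the array annotation gave its symbol alone to a transcript cluster, the unit of probes that the array summarises as 1 value. This held for 6 of the 8, each with 1 such cluster, out of 14506 genes named in this way. Nrg3 and Nrg4 were not analysed here. The cultures were primary motor neurons from rat embryos at embryonic day 13.5, kept for 2 days in vitro and exposed for 2 h at 37C to 1 microM camptothecin, a poison of topoisomerase 1, or to the same volume of its solvent DMSO. Each treatment had 3 Affymetrix Rat Gene ST arrays. The labels give the samples of a treatment as biological replicates and do not describe what kept the cultures apart or whether they were purified, so p-values reflect the scatter among these samples, which may be technical.

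Neuregulins are growth factors with an EGF-like domain, most of them made as membrane-anchored precursors that proteases cut. Neuregulin 1 on motor axons is known as the signal that sustains Schwann cells and their myelin, and it also acts at the neuromuscular junction. ErbB3 and ErbB4 bind neuregulins, ErbB2 has no known soluble ligand and serves as a partner, and ErbB3 has a weak kinase and signals through its partners. Egfr binds EGF, HB-EGF and related ligands. Active receptors recruit adaptors that switch on the Ras to MAP kinase and the PI3 kinase to Akt routes, and a set of inhibitors and ubiquitin ligases turns them off.

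Egfr and Erbb4 are the receptors in which the data differ most plainly, since both were bright enough to measure and both have long gene bodies, yet Egfr fell and Erbb4 did not pass the test. The 250 bases before their annotated starts, from the RefSeq promoter table for GRCr8, are shown so that these regions can be compared. The table also held Nrg2, Nrg3, Nrg4 and Erbb2, but not Nrg1. Egfr lies at chr14:95378376-95378625 on the plus strand and Erbb4 at chr9:78045607-78045856 on the minus strand. Both are written 5′ to 3′, and capitals mark the GC box.
Egfr: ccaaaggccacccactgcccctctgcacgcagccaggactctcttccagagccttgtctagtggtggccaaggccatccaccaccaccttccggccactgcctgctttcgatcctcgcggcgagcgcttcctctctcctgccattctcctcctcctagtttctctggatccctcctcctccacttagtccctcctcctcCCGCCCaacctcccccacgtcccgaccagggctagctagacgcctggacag
Erbb4: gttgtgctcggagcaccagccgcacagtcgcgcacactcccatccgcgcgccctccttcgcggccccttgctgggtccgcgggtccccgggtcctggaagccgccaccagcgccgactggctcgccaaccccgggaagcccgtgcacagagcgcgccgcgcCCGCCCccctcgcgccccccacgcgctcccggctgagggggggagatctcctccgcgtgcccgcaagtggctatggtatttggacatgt

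The Egfr window was 63.6% G or C with 11 CpG pairs, and the Erbb4 window 73.6% with 31. Of the 33469 windows of this length in the table, 82.1% had a lower G and C share than Egfr and 95.5% a lower share than Erbb4. Each held 1 GC box (GGGCGG, either strand), which 30.5% of all windows hold. Neither held TATAAA, present in 12.9% of windows on either strand, or the AP-1 letters TGAGTCA, present in 4.05%. These matches describe the letters only, and the array gives no measurement at promoters.

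Of the 6 measured members, Nrg1 and Egfr fell and none rose (0 higher also at an unadjusted p under 0.05). Egfr, the receptor for EGF and HB-EGF, fell 2.12-fold, and Nrg1, the main neuregulin of motor axons, fell 1.60-fold. Erbb4, the neuregulin receptor typical of neurons, and the dim Nrg2, Erbb2 and Erbb3 (dim meaning a mean below the median of all clusters) did not pass the test. The calls are those at a limma adjusted p under 0.05. Over all 14506 genes 9.35% were called lower and 11.3% higher (7.91% and 10.1% of all 29214 clusters), so 2 of 6 lower compares with that background, and with so few genes it says nothing particular about the family. The median log2 change was -0.02 over the 6 members and 0.06 over all genes. In bulk cultures less RNA per cell and fewer cells that carry it cannot be told apart, here and in each result after it.

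Among the ligands, Nrg1 had log2 values of 7.51, 7.43 and 7.26 in the DMSO arrays and 6.95, 6.70 and 6.52 in the camptothecin arrays. All 3 camptothecin values lay below all 3 DMSO values, a separation downward found for 15.5% of all genes. The log2 change was -0.68 (limma SE 0.12, 95% interval -0.97 to -0.38, adjusted p = 0.0121, n = 3 per treatment), a level 0.626 times that in DMSO. The spread was wider with camptothecin (SD 0.22) than with DMSO (SD 0.13). The call held with each array left out in turn (log2 change -0.79 to -0.57, largest adjusted p = 0.0476). It was lost at an adjusted p threshold of 0.01, and when the change was tested against 1.2-fold in place of 0 (adjusted p = 0.115). Many transcript forms of Nrg1 exist, and the single cluster does not separate them.

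Nrg2, a related neuregulin expressed in the nervous system, had log2 values of 5.48, 5.32 and 5.43 with DMSO and 5.55, 5.44 and 5.48 with camptothecin. The groups overlapped, and the log2 change of 0.08 (SE 0.07, adjusted p = 0.511) did not pass. Its 95% interval allows levels from 0.938 to 1.19 times those in DMSO. The cluster was dim, 0.83 below the median of all clusters (6.28 on the log2 scale), where a true change is harder to see. Among the 6034 dim genes 1.66% were called lower and 3.22% higher, against 14.8% and 17.1% of the 8472 others.

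**Figure D1:**
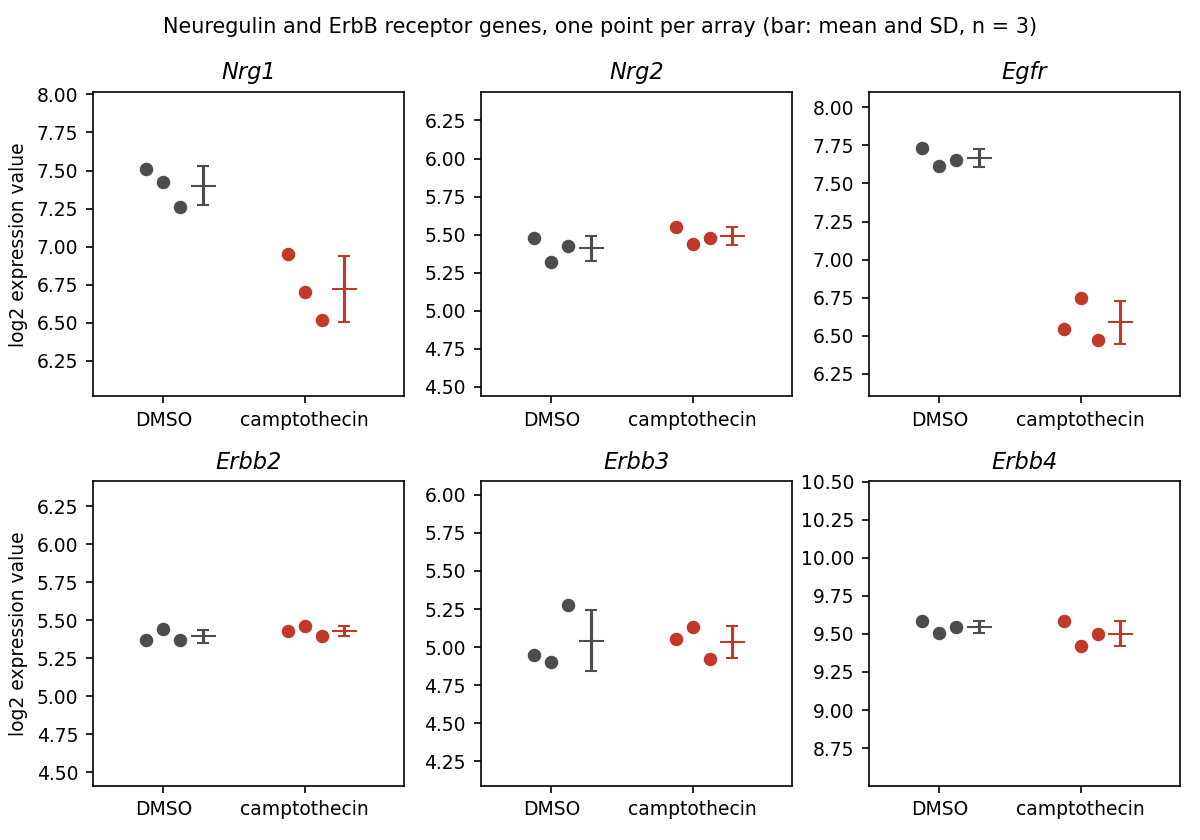
Log2 expression values of the 6 measured members, 1 point per array, with the mean and SD (n = 3) beside each group. Every panel spans 2 log2 units around its own centre, so heights show differences within a gene and not levels between genes. The camptothecin points lie below the DMSO points for Nrg1 and Egfr and overlap them for the other genes.

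Among the receptors, Egfr had values of 7.73, 7.62 and 7.66 in DMSO and 6.55, 6.75 and 6.47 with camptothecin. The groups were far apart, since the highest camptothecin value lay below the lowest DMSO value by several times the SD of either group (0.06 and 0.14). The log2 change was -1.08 (SE 0.09, 95% interval -1.29 to -0.87, adjusted p = 0.000438). The level with camptothecin was 0.472 times that with DMSO (interval 0.409 to 0.547). Only 117 of the 14506 genes (0.81%) had a lower log2 change. The call held in each of the 17 alternatives, with log2 changes from -1.33 to -1.02.

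Erbb4 had values of 9.58, 9.50 and 9.55 with DMSO and 9.58, 9.42 and 9.50 with camptothecin. The groups overlapped, and the log2 change was -0.04 (SE 0.07, adjusted p = 0.731). Here brightness was not the limit, since the cluster was brighter than 89.5% of clusters and the 95% interval is narrow, from 0.864 to 1.09 times the DMSO level. A fall as large as that of Nrg1 or Egfr lies outside this interval.

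Erbb2, the ligandless partner, had values of 5.37, 5.44 and 5.37 with DMSO and 5.43, 5.46 and 5.40 with camptothecin. The arrays of both treatments overlapped within a narrow band, with a log2 change of 0.04 (SE 0.06, adjusted p = 0.756) and an interval of 0.924 to 1.14 times DMSO. Erbb3, the kinase-weak receptor of Schwann cells and their precursors, had values of 4.95, 4.91 and 5.27 with DMSO and 5.06, 5.13 and 4.92 with camptothecin. DMSO replicate 3 was the highest of the 6, and the log2 change was -0.01 (SE 0.12, adjusted p = 0.977). Its 95% interval on the log2 scale, -0.28 to 0.27, is the widest among the receptors. Both clusters were dim, at 0.87 and 1.24 below the median of all clusters, and the deposited table has no background call to say whether they were detected.

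The changes of Nrg1, Egfr and Erbb4, the 3 members brighter than the median, were compared within each array, where a constant shift of a whole array cancels. The difference Egfr minus Erbb4 ran from -1.89 to -1.85 in the DMSO arrays and from -3.04 to -2.68 in the camptothecin arrays. Egfr therefore changed by -1.04 more than Erbb4 on the log2 scale. The difference Nrg1 minus Erbb4 ran from -2.29 to -2.07 with DMSO and from -2.98 to -2.63 with camptothecin, a difference of changes of -0.63. For Nrg1 minus Egfr the ranges were -0.40 to -0.19 and -0.04 to 0.41, a difference of 0.41. The groups did not overlap in any of the 3 pairs, and each exact permutation test (two-sided, 3 against 3 arrays) gave p = 0.1, the smallest that this design allows, also when adjusted over the 3 pairs. The design thus cannot reach 0.05 in this test. Without camptothecin replicate 1, the difference between Nrg1 and Egfr fell from 0.41 to 0.27.

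The scale of the arrays matters for the members that did not pass. With each array centred on its ribosomal protein genes (68 genes), the median change of all clusters moved by -0.24, and every member moved down with it. Erbb2 then had a log2 change of -0.21 (limma adjusted p = 0.0467) and Erbb4 of -0.29 (adjusted p = 0.0446), so 4 of 6 members were called lower. Nrg2 became -0.16 and Erbb3 -0.25, neither past the threshold. Nrg1 and Egfr were lower past the threshold under all of the 4 scalings run. With that centring 8.5% of the called clusters were higher, against 56% as deposited and 37.2% with arrays centred on their medians.

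**Figure D2:**
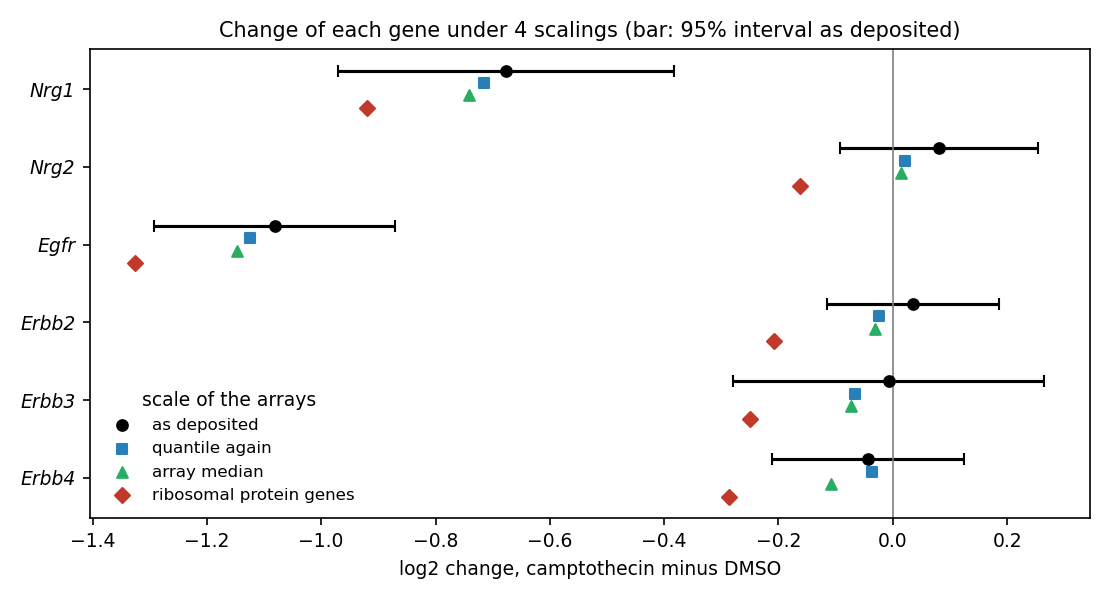
Log2 change of each measured member, camptothecin minus DMSO, under 4 scalings of the arrays. Bars are 95% limma intervals for the values as deposited (n = 3 per treatment). Nrg1 and Egfr stay below 0 throughout. Nrg2 lies below 0 only under ribosomal centring, and Erbb2 lies above 0 only as deposited. Erbb4 lies near 0 except under ribosomal centring.

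The members fall into long and short genes by their annotated genomic span in GRCr8, used for length only because no source here names the build behind the array. Erbb4 spans 1072 kb, Nrg1 1053 kb, Nrg2 182.0 kb and Egfr 172.7 kb, while Erbb2 spans 23.9 kb and Erbb3 21.3 kb. Both members that fell are among the 4 long ones. They are also among the members that are not dim (Nrg1, Egfr and Erbb4), while both short members and Nrg2 are dim. Of all dim genes 1.66% were called lower, against 14.8% of the others. The members are too few to separate span from brightness. Of the 374 genes of 300 kb or more, 40.1% were called lower and 1.07% higher, and of the 1257 genes of 100 to 300 kb, 33.3% were lower and 2.07% higher. Nrg1 therefore shares its direction with many genes of its length, and 15.8% of the genes of 300 kb or more had a lower change. Egfr stood further down, with 5.6% of genes of 100 to 300 kb below it.

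Erbb4 and Nrg1 have almost the same span and differed in their change. In the group of 300 kb or more, whose median log2 change was -0.19, 65.8% of genes had a lower change than Erbb4. Nrg2, with a span close to that of Egfr, had a higher change than 81.9% of genes of 100 to 300 kb, where the median was -0.12. Of the 9328 genes under 30 kb 2.34% were lower and 15.2% higher, with a median of 0.10. Erbb2 and Erbb3 lay below that median, with 34.4% and 26% of these genes under them.

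**Figure D3:**
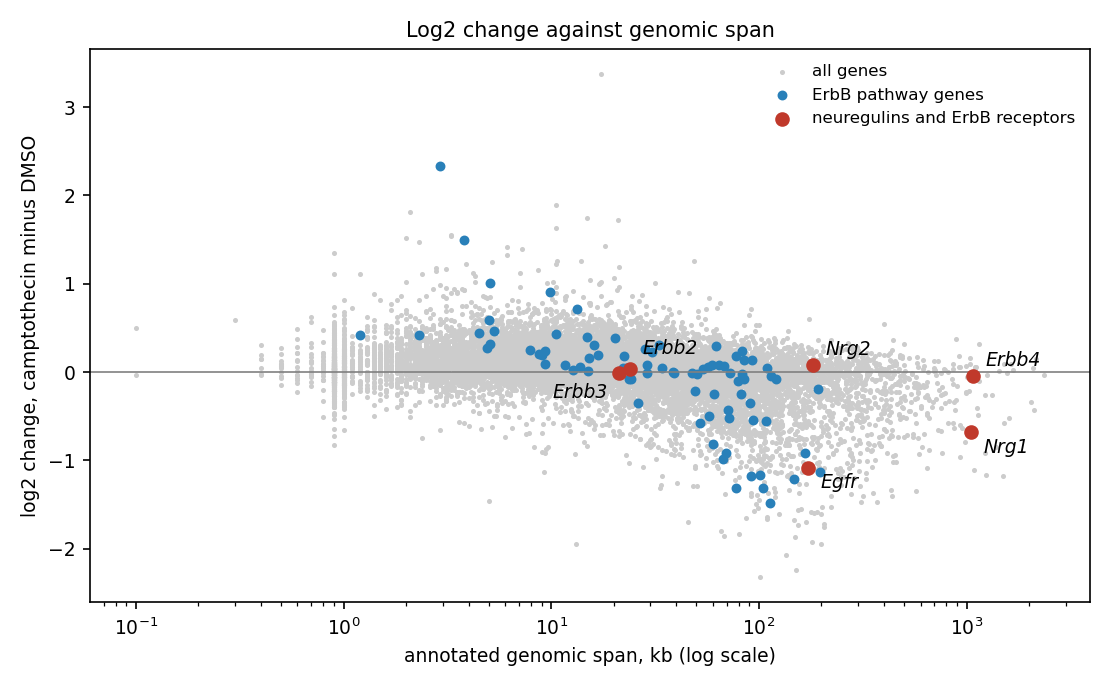
Log2 change, camptothecin minus DMSO, against annotated genomic span in kb (log scale). Grey points are all genes with a span, blue points the other genes of the ErbB pathway lists and red points the 6 measured members. Egfr and Nrg1 lie below 0 at long spans, and Erbb4 lies near 0 at the longest span of the members.

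Around the receptors, 82 of 98 listed genes of the ErbB pathway were measured, of which 18 fell, 15 rose and 49 did not pass the test. That is a larger share than the background of 9.35% lower and 11.3% higher over all genes, in a list with only 15 dim genes of 82. Among all genes not dim 14.8% were lower and 17.1% higher, so the share of the list that rose is near that of such genes. The list was not tested as a set. The median log2 change of the list was 0.05, against 0.06 over all genes. By length the list split in the same direction as all genes. Of its 36 genes under 30 kb 13 rose and 1 fell (15.2% and 2.34% of all 9328 genes of that length). Of 35 genes from 30 to 100 kb 2 rose and 10 fell (5.43% and 16.2% of all 3515 genes of that length). Of 11 genes of 100 kb or more 0 rose and 7 fell. The median span was 5.1 kb for those that rose and 84.3 kb for those that fell. Among all 1631 genes of 100 kb or more, 34.8% were lower and 1.84% higher.

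**Figure D4:**
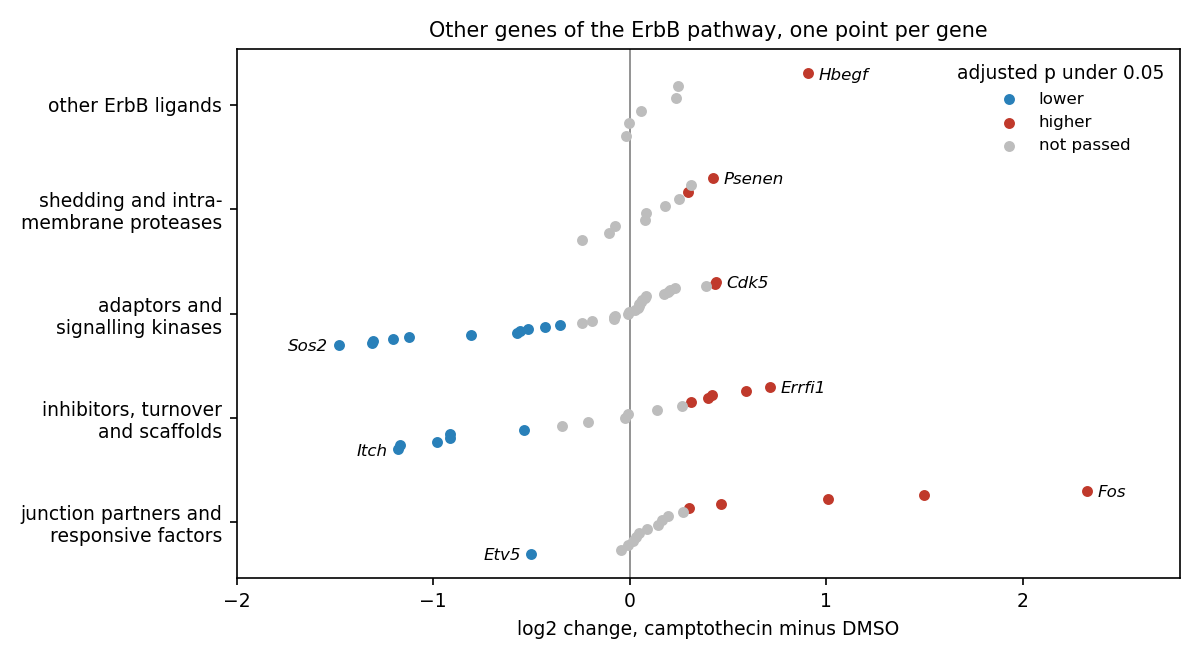
Log2 change, camptothecin minus DMSO, of the other genes of the ErbB pathway, 1 point per gene in 5 lists, coloured by direction where the limma adjusted p was under 0.05. Vertical position within a list only orders the genes. Of 33 adaptors and kinases 11 fell and 2 rose, and of 17 inhibitors, turnover factors and scaffolds 6 fell and 5 rose. Over all genes not dim 14.8% were lower and 17.1% higher. In the 5 lists the genes that fell had a median span of 84.3 kb and those that rose 5.1 kb. The largest rise is that of Fos.

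Of the 6 other ErbB ligands measured 1 rose, beside 11.3% higher and 9.35% lower over all genes. This was Hbegf, a ligand of Egfr and Erbb4 with a span of 9.9 kb, where 15.2% of genes under 30 kb were higher. Its values were 7.45, 7.19 and 7.19 with DMSO and 8.07, 8.40 and 8.09 with camptothecin, so the groups were apart, as they were upward for 27.1% of all genes. The level was 1.88 times that in DMSO (log2 change 0.91, SE 0.12, adjusted p = 0.0033). The other 5 measured ligands (Egf, Tgfa, Areg, Ereg and Btc) did not pass, none fell (0 also at an unadjusted p under 0.05 in limma), and 3 of the 6 were dim.

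Of 10 measured proteases that release ErbB ligands or cut their stubs, 2 rose and 0 fell (0 lower also at an unadjusted p under 0.05), a share near the background of 11.3% higher over all genes and 17.1% over genes not dim. Under ribosomal centring 0 were higher and 2 lower. Psenen, a subunit of gamma-secretase, rose from 10.44, 10.42 and 10.41 to 10.77, 10.97 and 10.80, a log2 change of 0.42 (SE 0.08, adjusted p = 0.0106). Adam17, the protease that sheds HB-EGF and neuregulin 1, had a log2 change of 0.30 (SE 0.08, adjusted p = 0.0428). The Adam17 call was lost in 5 of 6 fits with 1 array left out, all but that without DMSO replicate 1 (log2 change 0.26 to 0.36, adjusted p up to 0.141). Bace1, the protease that cuts neuregulin 1 for myelination, had a log2 change of 0.18 (SE 0.08, adjusted p = 0.203), and is named after its value was seen. Under ribosomal centring, Psenen (0.18, adjusted p = 0.0671) and Adam17 (0.05, adjusted p = 0.625) did not pass. With arrays centred on their medians Adam17 did not pass (0.229, limma adjusted p = 0.1015), while Psenen did (0.358, adjusted p = 0.02).

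Of 33 measured adaptors and signalling kinases 11 fell and 2 rose, beside 14.8% lower and 17.1% higher over all genes not dim. The largest falls were in the exchange factors that load Ras. Sos2 went from 9.20, 9.08 and 9.04 with DMSO to 7.69, 7.63 and 7.56 with camptothecin, a log2 change of -1.48 (SE 0.07, adjusted p = 5.6e-05). Sos1 went from 10.29, 10.33 and 10.32 to 8.97, 9.05 and 8.99 (log2 change -1.31, SE 0.06). For both genes the arrays of a treatment were close together and the treatments far apart. Pik3cb, a catalytic PI3 kinase subunit, changed by -1.31 (SE 0.09), and Braf, a kinase under Ras, by -1.21 (SE 0.08). The rises were Nras (0.43, SE 0.07), a Ras protein, and Cdk5 (0.44, SE 0.11), a neuronal kinase, both named after their values were seen. The Cdk5 call held in 1 of 6 fits with 1 array left out, that without camptothecin replicate 1 (adjusted p up to 0.0923). Neither rise passed under ribosomal centring. With arrays centred on their medians Cdk5 did not pass (0.375, limma adjusted p = 0.0651), while Nras did (0.366, adjusted p = 0.0203).

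Inhibitors, turnover factors and scaffolds of the receptors went both ways, with 6 falls and 5 rises among 17 measured. Over all genes not dim 14.8% were lower and 17.1% higher, and 1 of the 17 was dim. Itch, a ubiquitin ligase, changed by -1.18 (SE 0.06), Spred2, an inhibitor of Ras to MAP kinase signalling, by -1.17 (SE 0.13), its relative Spred1 by -0.98 (SE 0.08) and the ubiquitin ligase Cblb, which tags active receptors, by -0.92 (SE 0.08). Spred2 values were 8.77, 8.58 and 8.64 with DMSO and 7.30, 7.79 and 7.41 with camptothecin. The 5 that rose, named after their values were seen, were Errfi1 (0.71, SE 0.10), Spry1 (0.59, SE 0.08), Stub1 (0.42, SE 0.08), Spry4 (0.40, SE 0.10) and Spry2 (0.31, SE 0.07). Errfi1, which binds and blocks the kinases of Egfr and its relatives, had values of 9.16, 9.38 and 9.28 with DMSO and 9.87, 10.17 and 9.93 with camptothecin, with no overlap. The Sprouty genes encode feedback inhibitors of Ras signalling, and Stub1 a ubiquitin ligase that acts with chaperones. The fallers named here span 67.1 to 167.1 kb and the 5 risers 2.3 to 14.9 kb. The calls of Spry2 and Spry4 were lost in 5 and 4 of 6 fits with 1 array left out (adjusted p up to 0.0922 and 0.106). Spry2 held only without camptothecin replicate 1, and Spry4 without that array or DMSO replicate 1. Under ribosomal centring Spry2, Spry4 and Stub1 did not pass, while Errfi1 (0.47, adjusted p = 0.0104) and Spry1 (0.35, adjusted p = 0.0109) did. With arrays centred on their medians Spry2 (0.25, limma adjusted p = 0.074) and Spry4 (0.33, adjusted p = 0.0545) did not pass, while Errfi1, Spry1 and Stub1 did.

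Of 16 partners of the neuromuscular junction and transcription factors downstream of receptor kinases, 5 rose and 1 fell. Over all genes 11.3% were higher and 9.35% lower, and 5 of the 16 were dim. The rises were led by Fos (2.33, SE 0.08), Egr1 (1.50, SE 0.10) and Egr2 (1.01, SE 0.08), immediate-early factors that many stimuli induce. Etv5, a factor of the ETS family, changed by -0.50 (SE 0.13, adjusted p = 0.0416), and its call was lost in 5 of 6 fits with 1 array left out, all but that without camptothecin replicate 2 (log2 change -0.62 to -0.41, adjusted p up to 0.126). Agrn, the nerve-derived organiser of the junction, had a log2 change of 0.30 (SE 0.08, adjusted p = 0.0435), and is named after its value was seen. Its call held in 1 of those 6 fits, that without camptothecin replicate 1 (adjusted p up to 0.135), and was lost with arrays centred on their medians (0.24, adjusted p = 0.0972) or on ribosomal protein genes (0.06, adjusted p = 0.564). The receptors of agrin on muscle, Musk (-0.04) and Lrp4 (0.03), did not pass. Musk was dim (5.14 in DMSO), where a true change is harder to see, and Lrp4 (6.97) was not.

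Genes with profiles most like Nrg1 and Egfr over the 6 arrays were listed as a description. For Nrg1 these were Rgs7 (Pearson's r 0.998), Ptpre (0.995) and Acbd5 (0.994), and 293 of 14306 genes compared had r above 0.95. Rgs7 itself changed little (log2 change -0.07, SE 0.06, adjusted p = 0.468), since r takes no account of size, while Ptpre (-0.48, SE 0.09) and Acbd5 (-0.40, SE 0.08) fell. For Egfr they were Tent2, Spred1 and Vcl, each with r of 0.999, and 983 genes had r above 0.95. Tent2 (-0.90, SE 0.09), Spred1 (-0.98, SE 0.08) and Vcl (-0.66, SE 0.08) all fell. The 6 arrays come from 2 treatments, and r includes the difference between them.

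The labelled cell type was checked against markers. The neurofilament genes Nefl and Nefm were bright in DMSO (10.24 and 10.56), while Isl1 (5.77), Isl2 (5.15), Slc18a3 (6.16) and Slc5a7 (6.21) lay below the median of all clusters. Others lay above it, such as Gfra1 (8.67), Ret (7.88), Foxp1 (7.54) and Lhx3 (6.43). Mnx1 and Chat were not analysed here. The 10 measured interneuron and sensory neuron markers had DMSO means from 6.60 (Lhx5) to 10.65 (Gad2), with 0 dim. All of them, Slc17a6 (10.38) and Slc6a5 (9.26) included, were brighter than Isl1, Isl2, Slc18a3 and Slc5a7. Probes differ in brightness, so these levels do not measure the share of motor neurons or of interneurons. Of 14 measured motor neuron markers 3 rose and 1 fell, beside 11.3% higher and 9.35% lower over all genes. The largest rises were in Nefh (0.59, SE 0.11) and Nefm (0.42, SE 0.07). The summed log2 level of the 14 ran from 99.5 to 99.8 with DMSO and from 99.0 to 101.1 with camptothecin. The direction of these counts depended on the scale, with 1 higher and 7 lower under ribosomal centring, where Nefm did not pass (adjusted p = 0.0952). The other calls were those of Prph (0.31), lost with any 1 array left out (adjusted p up to 0.125), and Foxp1 (-0.34), kept in 1 of those 6 fits, that without camptothecin replicate 2. Prph also did not pass with arrays centred on their medians (0.245, limma adjusted p = 0.0867). Among 10 interneuron and sensory neuron markers 5 fell and 0 rose (1 higher at an unadjusted p under 0.05). Of all genes 9.35% were lower, and of genes not dim 14.8%. The 5 that fell span 40.1 kb (Slc17a6) to 91.2 kb (Pax2), and the other 5 span 1.8 kb (Lbx1) to 8.4 kb (Lhx5). Of all genes of 30 to 100 kb 16.2% were lower, and of those under 30 kb 2.34%. Summed levels of the 10 markers were 83.7 to 84.6 in DMSO and 80.2 to 81.4 in camptothecin. Slc6a5 changed by -1.79 (SE 0.11) and Gad2 by -0.99 (SE 0.06). The 5 that did not pass all had deposited changes above 0, from 0.08 for Pou4f1 to 0.26 for Lhx5, where the median over all genes was 0.06. The groups of Slc32a1 (0.23, adjusted p = 0.0759) did not overlap, a separation upward found for 27.1% of all genes. Ribosomal centring, which moved the median change of all clusters by -0.24, kept the 5 falls and left 0 higher. The interneuron and sensory neuron markers named beyond Slc6a5 and Gad2 were picked after their values were seen. The part of these markers in the falls of Nrg1 and Egfr was not tested.

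Markers of the glia that carry ErbB3, the Schwann cell and oligodendrocyte lineage, had 1 fall (Mbp, -0.48, SE 0.08) and 1 rise (S100b, 0.34, SE 0.09) among 11, and summed levels of 74.8 to 75.3 in DMSO and 74.5 to 75.2 in camptothecin. Under ribosomal centring 5 of these 11 were lower and 0 higher, and S100b was at 0.10 (adjusted p = 0.468). With arrays centred on their medians S100b did not pass either (0.28, limma adjusted p = 0.0894). The S100b call held in 1 of 6 fits with 1 array left out, that without camptothecin replicate 1 (adjusted p up to 0.129). The Mbp call held in all 6 such fits, but was lost when the change was tested against 1.2-fold. Averaging its clusters, in place of taking the brightest, also lost the Mbp call and left 0 of these 11 markers lower. Sox10 (6.57 in DMSO) was slightly above the median of all clusters and Cdh19 (2.93) far below it. Progenitor and astroglial markers, a cell type in which Egfr is known to be expressed, had 1 fall among 11 (Pax6, -0.58, SE 0.09) and overlapping summed levels of 87.4 to 88.0 in DMSO and 87.4 to 88.2 in camptothecin. Fabp7 (12.41 in DMSO, log2 change -0.001) and Vim (11.81, change 0.06) did not pass. Fibroblast markers had 1 fall among 9 (Fn1, -0.36, SE 0.07), muscle markers 1 fall (Pax3, -0.67, SE 0.13) and 1 rise (Acta1, 0.32, SE 0.08) among 8, and endothelial, blood and microglial markers 0 calls among 9 by limma (2 higher and 0 lower at an unadjusted p under 0.05). In that last list Hbb had the largest value (0.27, SE 0.15, adjusted p = 0.279). With 1 array left out, the calls were lost for Fn1 without DMSO replicate 2 or 3 (adjusted p up to 0.0623), for Pax3 without DMSO replicate 1 (0.0518) and for Acta1 in all such fits but that without camptothecin replicate 1 (up to 0.0918). Acta1 also did not pass with arrays centred on their medians (0.25, limma adjusted p = 0.0713) or on ribosomal protein genes (0.075, adjusted p = 0.381). Summed levels of the fibroblast list, the muscle list and the endothelial, blood and microglial list overlapped between the treatments. Counts of 0 or 1 per direction in these lists, as in the glial and progenitor lists, are near the 9.35% lower and 11.3% higher over all genes. The changes of Nrg1 and Egfr cannot be assigned to motor neurons from these arrays.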

How the data were processed

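Per the labels, the authors made biotinylated cDNA from 1 microg of total RNA of 6 cultures and hybridised it to Affymetrix Rat Gene ST arrays. The deposited values are log2 expression values per transcript cluster, and RMA and oligo appear in the submitters' processing notes. The sources used here give no version, probe annotation or build. Array medians were 6.31 to 6.33 with camptothecin and 6.22 to 6.28 with DMSO, and Pearson's r was 0.992 to 0.995 within a treatment and 0.983 to 0.985 between treatments. Precision is limited by the number of arrays.

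Camptothecin was compared with DMSO by a two-sided limma test (version 3.58.1 under R 4.3.3, functions lmFit and eBayes) on all 29214 clusters as deposited, with Benjamini-Hochberg adjustment over all of them and a threshold of 0.05. Rose and fell mean past that threshold. SE and intervals are limma's. The fit was tested on simulated data. Of the clusters, 15310 had 1 symbol in the annotation, 323 had several and 13581 had none. A gene is its cluster with the highest mean, and 15279 of the 15310 matched RefSeq. Dim means a mean below the median of all clusters.

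Members and lists were chosen with earlier results of these data known. The text names all members, up to 4 called genes with the largest change per pathway list, up to 2 per marker list (where none passed, the largest), and the 3 genes most correlated with the ligand and the receptor that changed most, leaving out symbols starting LOC, RGD, Olr, Vom, Mir or Snor. The comparison between members was added after seeing the data. Over all clusters, same-numbered replicates did not deviate together (correlations of -0.08, 0.02 and 0.08), and the labels do not say whether they were paired. Alternatives were quantile normalization again, centring on array medians or ribosomal protein genes, no dim clusters, a replicate block, trend and robust variances, array weights, each array left out, 1-symbol clusters only, a threshold of 0.01, treat against 1.2-fold and the mean over a gene's clusters.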

Additional observations from a re-analysis of the deposited data

How the results depend on the processing

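Egfr kept its direction and its call in all 17 alternatives, and Nrg1 in 15 of 17. Members called lower numbered 2 as reported, 4 with ribosomal centring, 1 at a threshold of 0.01 and 1 with treat, and 2 in every fit with 1 array left out. Members called higher numbered 0 in every alternative. Sign changes, all among members not called as deposited, were Nrg2 at -0.16 and Erbb2 at -0.21 with ribosomal centring, Erbb2 at -0.024 with quantile normalization again and -0.031 with median centring, and Erbb3 at 0.05 without camptothecin replicate 3 and 0.11 without DMSO replicate 3 (-0.076 to 0.11 over the fits with 1 array left out). Pathway genes called lower numbered 18, 31 with ribosomal centring and 11 with treat (14 to 17 with 1 array left out). Those called higher numbered 15, 6 with ribosomal centring, 8 at 0.01 and 5 with treat (10 to 14 with 1 array left out). All 18 that fell and 6 of the 15 that rose kept their call under the 3 other scalings, and 14 and 10 with each array left out. All clusters called lower numbered 2311, 7178 with ribosomal centring, 1379 at 0.01 and 908 with treat (1581 to 2078 with 1 array left out). Those called higher numbered 2937, 1627 with median centring, 663 with ribosomal centring, 749 at 0.01 and 313 with treat (1187 to 2327 with 1 array left out, and more than 1.5 times fewer in each such fit except that without camptothecin replicate 1). Under the replicate block 1677 clusters were called higher and 1794 called lower, and 16 pathway genes were lower and 11 higher. Nrg1 and Egfr stayed called by limma (adjusted p = 0.00945 and 0.00408), although same-numbered samples did not deviate together over all clusters. The cause of these shifts was not tested. The differences of change between Nrg1, Egfr and Erbb4 kept their sign with quantile normalization again and with each array left out, alternatives chosen after seeing the data. In the marker lists calls also followed the scale, and under ribosomal centring 0 progenitor, fibroblast, muscle or endothelial markers were higher and 4, 3, 3 and 3 lower. The number of arrays and the dimness of Nrg2, Erbb2 and Erbb3 limit what can be seen of them.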
